A study of Homo sapiens with 8 samples.

Results

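The suppressors of cytokine signaling (SOCS1 to SOCS7 and CISH) and the Janus kinases JAK1 and JAK2 were examined in A498 cells, an established human clear cell renal cell carcinoma line in which VHL is mutated. The members were taken by gene symbol, and all 10 were found among the 59023 genes of the count table. The RNA came from 4 cultures exposed to interleukin-1β (IL1β; 30 ng/ml for 4 h; replicates 5 to 8) and from 4 untreated cultures (replicates 1 to 4), all grown in RPMI with 10% fetal bovine serum. All 8 libraries came from this single line at a single dose and time. The comparison asked which of these genes differed in mRNA level between IL1β-treated and untreated cells.

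Cytokine receptors without an enzymatic activity of their own signal through JAK kinases bound to their tails, which phosphorylate the receptor and the STAT transcription factors. STAT dimers then activate their target genes, among them several SOCS genes and CISH, whose proteins bind the kinases or the phosphorylated receptors and recruit a ubiquitin ligase through the SOCS box, so that the signal is limited by a negative feedback loop. The IL1 receptor itself uses MyD88 and IRAK kinases and not JAKs, but it induces cytokines such as IL6 that do.

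The promoters of SOCS1 and CISH are shown because these inhibitors are known as cytokine-induced members of the family. Each window holds 250 bases before and 50 after the transcription start, written along the coding strand, and the capitals mark matches to TTCNNNGAA or TTCNNNNGAA (letters of a STAT or GAS-type site) or to the NF-kB consensus. The SOCS1 window (RefSeq, GRCh38.p14) is chr16:11256155-11256454, minus strand. The CISH window (RefSeq, GRCh38.p14) is chr3:50611725-50612024, minus strand.
SOCS1: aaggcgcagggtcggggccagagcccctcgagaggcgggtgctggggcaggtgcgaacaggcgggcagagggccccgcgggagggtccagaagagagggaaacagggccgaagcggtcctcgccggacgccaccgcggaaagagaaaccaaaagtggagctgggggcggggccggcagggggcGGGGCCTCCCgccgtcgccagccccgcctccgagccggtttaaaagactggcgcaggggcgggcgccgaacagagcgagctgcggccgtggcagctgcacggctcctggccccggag
CISH: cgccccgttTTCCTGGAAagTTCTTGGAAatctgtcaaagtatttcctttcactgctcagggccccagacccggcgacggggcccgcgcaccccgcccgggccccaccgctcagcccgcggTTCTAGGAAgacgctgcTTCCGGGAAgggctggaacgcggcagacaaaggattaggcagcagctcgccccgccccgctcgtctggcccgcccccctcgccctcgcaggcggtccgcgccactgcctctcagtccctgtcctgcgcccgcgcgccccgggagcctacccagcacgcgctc

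The CISH window held 4 matches to TTCNNNGAA, which begin 241, 230, 129 and 112 bases before the start (TTCCTGGAA, TTCTTGGAA, TTCTAGGAA and TTCCGGGAA). The SOCS1 window held no GAS-type match and 1 NF-kB consensus match, GGGGCCTCCC, which begins 67 bases before the start. Both strands were searched and none of these matches overlapped another. The RefSeq windows of SOCS4, SOCS6, JAK1 and JAK2 held no match to any of these motifs. Among all 35116 promoter windows of the table, 7.66% held TTCNNNGAA, 6.44% held TTCNNNNGAA, 13.5% held either and 11.3% held the NF-kB consensus. At least 4 GAS-type matches, a number chosen after the CISH window was seen, were found in 9 windows (0.0256%). A match describes the letters of the window and not a bound site.

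**Figure D1:**
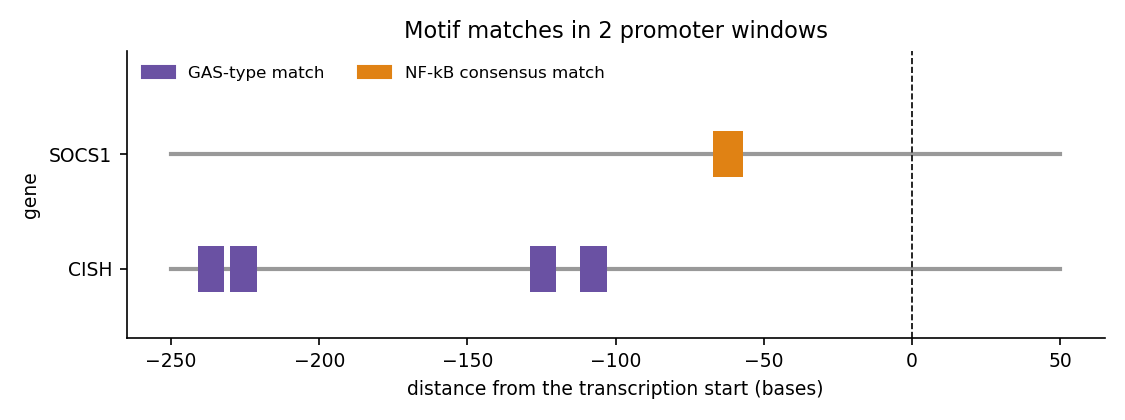
Positions of the motif matches in the promoter windows of SOCS1 and CISH; the x axis gives the distance from the transcription start in bases (dashed line at the start), grey lines are the windows searched, purple boxes GAS-type matches and the orange box the NF-kB consensus match. CISH holds 4 GAS-type matches, and SOCS1 holds the NF-kB match.

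The libraries held 15409093 to 24000727 counts in IL1β-treated cells and 16610473 to 27040505 counts in untreated cells, so that 1 count stood for 0.0370 to 0.0649 CPM (a gene's counts as a share of its library's total, multiplied so that all genes sum to the same total). Values below are CPM after TMM scaling, which corrects for differences in RNA makeup between libraries. On that scale 1 count stood for 0.0367 CPM (untreated replicate 1) to 0.0735 CPM (IL1β replicate 5). The first principal component (42.7% of the variance) set IL1β replicate 5 and untreated replicate 1 apart from the remaining 6 libraries. Of 15062 genes tested by edgeR's quasi-likelihood test, 140 rose and 9 fell with IL1β at a Benjamini-Hochberg adjusted p under 0.05. Of 6 genes set aside to check the labels by the IL1 response, NFKBIZ, ICAM1 and CXCL8 rose. All 6 were higher in each IL1β library than in each untreated library, against 4.6% of all genes tested. The study had already reported NFKBIZ, ICAM1, CXCL8 and IL6 as raised by IL1β in these data, so these genes are not an independent check. NFKBIZ kept its call with any single library left out, whereas ICAM1 and CXCL8 each kept it in 3 of 8 such fits (adjusted p up to 0.107 and 0.118, both without untreated replicate 2). Renal and clear cell carcinoma markers were present (9 of 10 above 1 CPM on average; EPCAM was not), with a summed level of 6100 to 7007 CPM in IL1β libraries and 5494 to 6411 CPM in untreated libraries. Most of this sum was VIM, with 3313 to 4829 CPM in IL1β libraries and 3753 to 4046 CPM in untreated libraries. CA9 averaged 1.85 ± 2.64 CPM with IL1β and 1.82 ± 1.32 CPM without. It was below 1 CPM in IL1β replicates 6, 7 and 8 and in untreated replicates 2 and 4. Of this list PAX8, a renal lineage transcription factor, rose, with 422 ± 72.4 CPM in IL1β libraries and 150 ± 49.0 CPM in untreated libraries (log2 fold change 1.50, SE 0.24, adjusted p = 0.0239). Of 7 leukocyte markers CD3E was at 0 in all libraries, and their sum was 1.98 to 10.1 CPM with IL1β and 2.02 to 21.3 CPM without. The 2 above 1 CPM on average were ITGAM and LYZ. ITGAM had 1.10 to 3.23 CPM with IL1β and 0.807 to 1.55 CPM without. LYZ made up most of the highest sums, with 19.5 CPM in untreated replicate 1 and 6.52 CPM in IL1β replicate 8. The 4 endothelial markers summed to 0.0735 to 1.01 CPM with IL1β and 0.388 to 2.38 CPM without. The 5 fibroblast markers, of which none was at 0, summed to 93.0 to 473 CPM with IL1β and 47.2 to 1314 CPM without, the highest in untreated replicate 4.

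Of the 10 members, SOCS3 rose with IL1β and no member fell; over all genes tested, 0.929% rose and 0.0598% fell. At an unadjusted p under 0.05, 2 members were higher (SOCS1 and SOCS3) and 0 were lower, against 6.23% and 4.55% of all genes. SOCS3 was also the only member whose 4 IL1β libraries all lay above the 4 untreated ones, and none lay entirely below, against 4.6% and 3.41% of all genes. The median log2 fold change of the 10 members was -0.0053, beside -0.02 over all genes. In bulk RNA, a change in the share of cells that express a gene and a change in RNA per cell cannot be told apart.

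SOCS3, an inhibitor that binds JAK kinases together with the gp130 (IL6ST) receptor chain and is known for limiting IL6 signals, was the member with the clearest difference. It lies on chromosome 17 (hg38, chr17:78356778-78360077, minus strand) and is annotated in 2 exons. Its level was 130, 155, 80.4 and 160 CPM in IL1β replicates 5 to 8, against 31.1, 47.8, 54.4 and 60.6 CPM in untreated replicates 1 to 4. The lowest IL1β library, replicate 7, stayed above the highest untreated library, replicate 4. These CPM values rest on 1666 to 3617 counts in IL1β libraries and 848 to 1295 counts in untreated libraries. The means were 131 ± 36.5 CPM with IL1β and 48.5 ± 12.7 CPM without (SD, n = 4 each), a 2.71-fold difference (log2 fold change 1.44, SE 0.28, 95% interval 0.82 to 2.06). The adjusted p of edgeR's quasi-likelihood test was 0.0473, which placed SOCS3 140th by p among all genes and close to the threshold. Over the 70 ways to split the libraries 4 and 4, the exact permutation test of the means (two-sided) gave p = 0.0286, the smallest value that 4 against 4 allow. The call did not hold with library-size scaling alone (adjusted p = 0.0916) or upper-quartile factors (adjusted p = 0.0559). It was also lost on leaving out any single library other than IL1β replicate 7, with adjusted p from 0.0523 without IL1β replicate 5 to 0.162 without untreated replicate 2, the log2 fold change staying between 1.28 and 1.62.

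**Figure D2:**
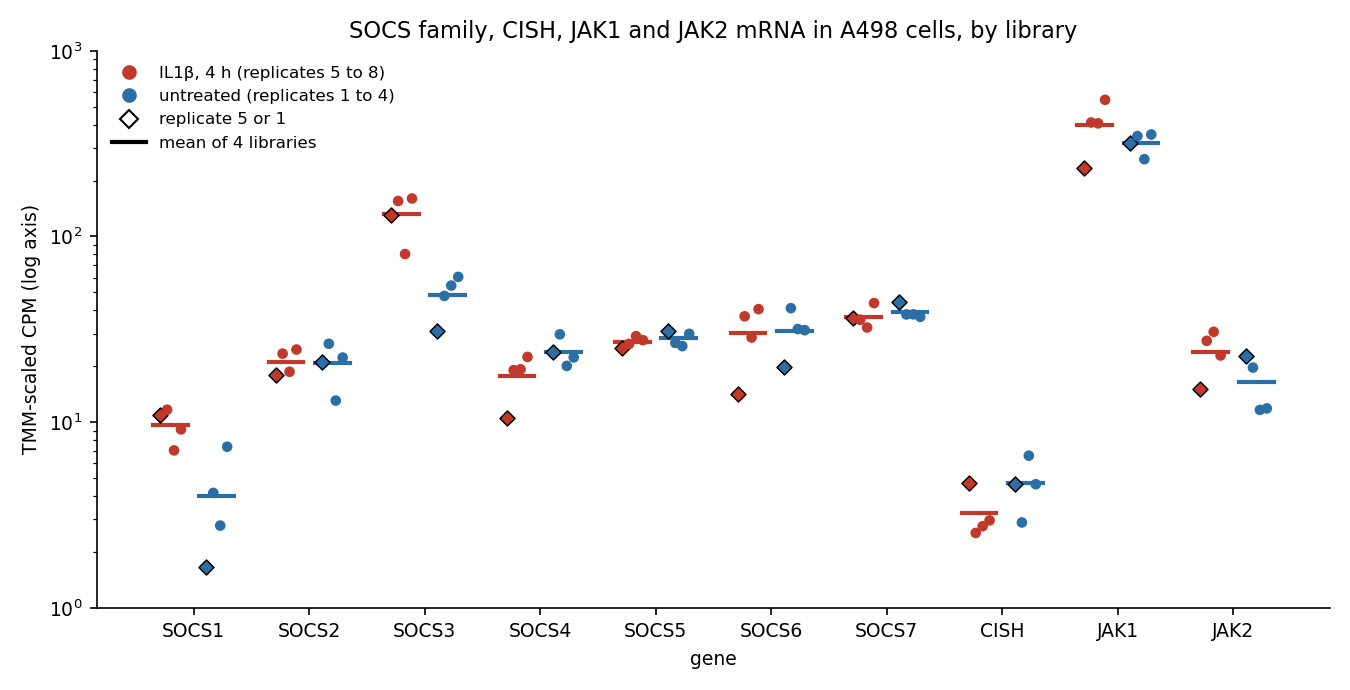
Level of each member by library, in TMM-scaled CPM on a log axis; red points are the 4 IL1β libraries, blue points the 4 untreated libraries, diamonds replicates 5 and 1 that stood apart, and bars the means of 4. The IL1β points of SOCS3 (80.4 to 160 CPM) lie above its untreated points (31.1 to 60.6 CPM), while the groups of every other member overlap.

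SOCS1, which blocks JAK catalytic activity directly and is known as an inhibitor of interferon signals, was measured at a lower level. It had 10.9, 11.7, 7.05 and 9.14 CPM in IL1β replicates 5 to 8, against 1.65, 4.16, 2.77 and 7.37 CPM in untreated replicates 1 to 4. Untreated replicate 4 was the only untreated library above any IL1β library, exceeding IL1β replicate 7. The means were 9.70 ± 2.06 CPM with IL1β and 3.99 ± 2.48 CPM without (SD, n = 4 each; 136 to 272 counts with IL1β and 45 to 148 without). The log2 fold change of 1.29 (SE 0.42, 95% interval 0.33 to 2.24) did not pass the test over all genes (edgeR quasi-likelihood p = 0.0133, adjusted p = 0.273), and the exact permutation test gave p = 0.0571. The adjusted p was 0.0760 with DESeq2 and 0.0785 without untreated replicate 4, the lowest among the alternative tools and the left-out libraries. Untreated replicate 4 was also the library with the summed fibroblast markers of 1314 CPM; the part of this in the SOCS1 values was not tested. SOCS1 (chr16:11254417-11256204, minus strand, 2 exons) lies inside RMI2 on the opposite strand without sharing an exon, and RMI2 averaged 23.2 CPM with IL1β and 27.6 CPM without (log2 fold change -0.25, adjusted p = 0.936 by edgeR).

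The ratio of SOCS1 to SOCS3 in a library does not depend on how the library is scaled. Its log2 value was -3.74 ± 0.28 in IL1β libraries and -3.77 ± 0.60 in untreated libraries (SD, n = 4 each), and the groups overlapped. The log2 ratio of SOCS3 to SOCS2 was 2.60 ± 0.34 with IL1β and 1.23 ± 0.66 without. The groups did not overlap (2.11 to 2.86 with IL1β, 0.56 to 2.06 without). Both ratios use the SOCS3 values already tested above and are given as a description.

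SOCS2 and CISH, the members best known as STAT5 targets and as inhibitors of growth hormone, prolactin and erythropoietin signals, did not pass the test. SOCS2 had 17.9, 23.4, 18.7 and 24.6 CPM in IL1β libraries, against 21.2, 26.4, 13.1 and 22.3 CPM in untreated libraries. The log2 fold change was 0.03 (SE 0.24, 95% interval -0.50 to 0.56; edgeR adjusted p = 0.985), with library-size scaling -0.12. Both the highest and the lowest SOCS2 value were untreated. CISH, whose promoter window held the 4 GAS-type matches printed above, had the lowest mean level of the members over all libraries (3.96 CPM). In untreated libraries alone SOCS1 averaged less (3.99 CPM against 4.68 CPM). CISH had 4.70, 2.53, 2.75 and 2.96 CPM in IL1β libraries, against 4.62, 2.88, 6.60 and 4.63 CPM in untreated libraries (44 to 64 counts with IL1β and 52 to 157 without). The log2 fold change was -0.54 (SE 0.33, 95% interval -1.28 to 0.20; edgeR adjusted p = 0.633). IL1β replicates 6 and 7 lay below every untreated library, while IL1β replicate 5 lay above 3 of the 4. In hg38, SOCS2 (chr12:93569814-93583487, plus strand) is annotated in 2 exons and CISH (chr3:50606489-50611774, minus strand) in 3. SOCS2 shares 277 exonic bases with SOCS2-AS1, and CISH shares 218 with MAPKAPK3, each on the opposite strand; the sources used here do not say whether the counting used strand. SOCS2-AS1 averaged 3.68 CPM with IL1β and 3.37 CPM without (log2 fold change 0.11, adjusted p = 0.976), with a direction that turned in library-size scaling (-0.07) and limma-voom (-0.09). MAPKAPK3 averaged 32.5 CPM with IL1β and 37.8 CPM without (log2 fold change -0.22, adjusted p = 0.766).

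SOCS4, SOCS5, SOCS6 and SOCS7 carry longer amino-terminal regions than the rest of the family; SOCS4 and SOCS5 are known to act on the EGF receptor, and SOCS6 and SOCS7 on receptor tyrosine kinase and insulin signals. None of these genes passed the test. They lie at chr14:55027230-55049489 (SOCS4), chr2:46698952-46780245 (SOCS5), chr18:70289045-70330199 (SOCS6) and chr17:38351844-38405593 (SOCS7), all on the plus strand of hg38. SOCS5 shares 160 exonic bases with LINC01118 on the same strand, a gene at 0 in 7 of the 8 libraries. SOCS4 had 10.5, 19.0, 19.3 and 22.4 CPM in IL1β libraries, against 23.8, 29.7, 20.1 and 22.3 CPM in untreated libraries. Its log2 fold change was -0.43 (SE 0.25, 95% interval -0.99 to 0.13; edgeR adjusted p = 0.611), and only IL1β replicate 8 exceeded any untreated library. SOCS5 was at 25.1 to 29.0 CPM with IL1β and 25.7 to 31.0 CPM without (log2 fold change -0.07, SE 0.15, 95% interval -0.40 to 0.27). Relative to its mean SOCS5 varied least of the members in IL1β libraries (SD 6.32% of the mean). In untreated libraries SOCS7 varied slightly less than SOCS5 (8.83% against 8.98%). SOCS7 ranged over 32.3 to 43.8 CPM with IL1β and 36.9 to 44.5 CPM without (log2 fold change -0.09, SE 0.16, 95% interval -0.45 to 0.26). The intervals of SOCS5 and SOCS7 were the narrowest of the 10 members. SOCS6 had 14.1, 37.1, 28.6 and 40.6 CPM in IL1β libraries, against 19.8, 41.1, 31.7 and 31.3 CPM in untreated libraries (log2 fold change -0.04, SE 0.33, 95% interval -0.79 to 0.71). The lowest SOCS6 value of each group was that of the library that stood apart, IL1β replicate 5 and untreated replicate 1. With these 2 libraries left out, the fitted changes of SOCS5 (0.03), SOCS6 (0.05) and SOCS7 (0.00076) turned sign and none passed the test.

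**Figure D3:**
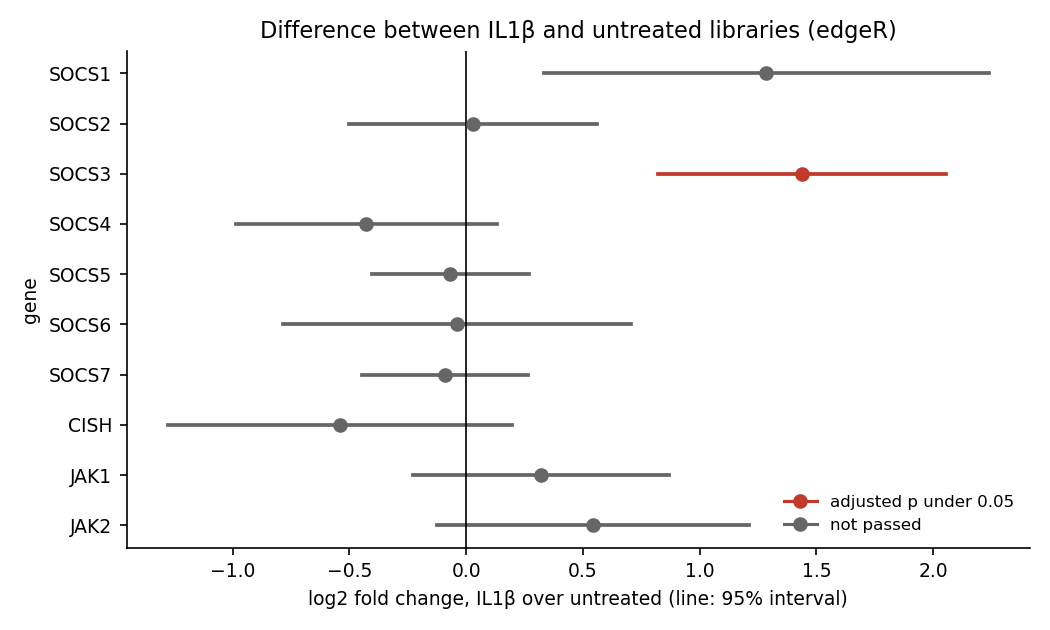
Log2 fold change of each member, IL1β over untreated (x axis), with its 95% interval as a line, from edgeR on 4 libraries a group; red marks an adjusted p under 0.05 over all genes. SOCS3 at 1.44 is red, SOCS1 at 1.29 lies beside it with a wider interval, and the intervals of the remaining 8 members include 0.

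The kinases JAK1 (chr1:64833223-65067754, minus strand) and JAK2 (chr9:4984390-5129948, plus strand), each annotated in 25 exons, did not pass the test. JAK1, which serves the gp130 and the interferon receptors, had 235, 411, 406 and 544 CPM in IL1β libraries, against 317, 347, 261 and 354 CPM in untreated libraries. IL1β replicate 5 was the lowest of all 8 libraries, and the other IL1β libraries were above every untreated library. The log2 fold change was 0.32 (SE 0.24, 95% interval -0.23 to 0.87; edgeR adjusted p = 0.719). JAK2, which serves the erythropoietin, growth hormone and interferon-γ receptors, had 15.1, 27.4, 30.6 and 22.9 CPM in IL1β libraries, against 22.7, 19.7, 11.6 and 11.9 CPM in untreated libraries. IL1β replicate 5 was the lowest of its group and untreated replicate 1 the highest of its group. Its log2 fold change was 0.54 (SE 0.30, 95% interval -0.12 to 1.21; edgeR adjusted p = 0.584). The log2 ratio of JAK2 to JAK1 was -4.04 ± 0.37 in IL1β libraries and -4.33 ± 0.47 in untreated libraries (SD, n = 4 each), with overlap. With IL1β replicate 5 and untreated replicate 1 left out, JAK1, JAK2 and SOCS3 were each higher in all IL1β libraries than in all untreated libraries, against 11.6% of the genes then tested. In that comparison of 3 against 3 libraries the log2 fold change was 0.52 for JAK1 (adjusted p = 0.205), 0.93 for JAK2 (adjusted p = 0.0919) and 1.30 for SOCS3 (adjusted p = 0.0372), all by edgeR's quasi-likelihood test. SOCS1 had a log2 fold change of 0.99 there (adjusted p = 0.265).

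**Figure D4:**
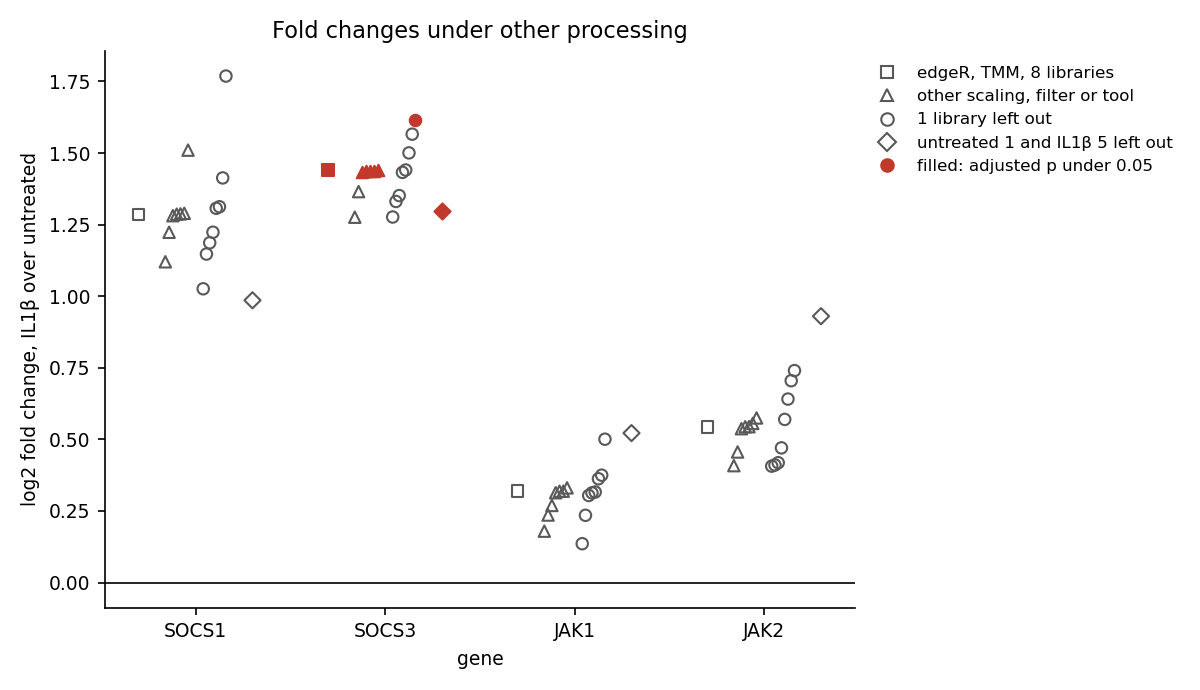
Log2 fold changes of SOCS1, SOCS3, JAK1 and JAK2, IL1β over untreated (y axis), in the fit reported here (squares), under other scalings, filters or tools (triangles), with 1 library left out (circles) and without untreated replicate 1 and IL1β replicate 5 (diamonds); filled red marks an adjusted p under 0.05. SOCS3 is filled for 5 of 7 triangles and 1 of 8 circles, and no value of SOCS1, JAK1 or JAK2 is filled.

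Levels of different genes were compared as CPM per kilobase of merged exons. In IL1β libraries SOCS3 stood first with 48.1 ± 13.3 CPM per kilobase, ahead of JAK1 with 30.3 ± 9.62 (SD, n = 4). In untreated libraries JAK1 stood first with 24.3 ± 3.23 CPM per kilobase, ahead of SOCS3 with 17.7 ± 4.64. SOCS3 exceeded JAK1 in 3 of the 4 IL1β libraries, all but replicate 7, and in 1 of the 4 untreated libraries, replicate 3, so that the order of the 2 genes was not separated from the spread. Both stood above the other 8 members in every library. Next in IL1β libraries came SOCS1 (5.43 ± 1.15), SOCS6 (5.16 ± 2.02), SOCS7 (4.11 ± 0.536), SOCS5 (3.61 ± 0.228), SOCS2 (3.26 ± 0.515), JAK2 (3.03 ± 0.854) and SOCS4 (2.53 ± 0.726), whose neighbours overlapped in range. In untreated libraries SOCS1 averaged 2.23 ± 1.39 CPM per kilobase, below SOCS6 (5.31 ± 1.49), SOCS7 (4.37 ± 0.386), SOCS5 (3.78 ± 0.340), SOCS4 (3.41 ± 0.584) and SOCS2 (3.20 ± 0.863) and above JAK2 (2.08 ± 0.707), again with neighbours that overlapped. CISH was last in every library, at 0.640 ± 0.196 with IL1β and 0.926 ± 0.300 without. The order rests on the length used: with the length of the MANE Select transcript, the agreed representative isoform, JAK1 stood first in both groups (78.4 ± 24.9 with IL1β and 62.8 ± 8.36 CPM per kilobase without).

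Within the 8 SOCS and CISH genes, SOCS3 made up 69.3, 67.6, 56.7 and 67.5% of the summed CPM per kilobase in IL1β replicates 5 to 8, against 35.2, 40.2, 48.9 and 46.9% in untreated replicates 1 to 4. The groups did not overlap, with means of 65.3 ± 5.78% and 42.8 ± 6.29% (SD, n = 4 each). The sum of all 8 genes was 72.8 ± 16.1 CPM per kilobase in IL1β libraries and 41.0 ± 6.33 in untreated libraries. Without SOCS3 the sum was 24.7 ± 3.48 with IL1β and 23.2 ± 2.72 without, and the groups overlapped. With MANE Select lengths the SOCS3 share was 56.2 ± 5.91% with IL1β and 34.0 ± 6.08% without. These shares use the SOCS3 values already tested above and are given as a description.

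**Figure D5:**
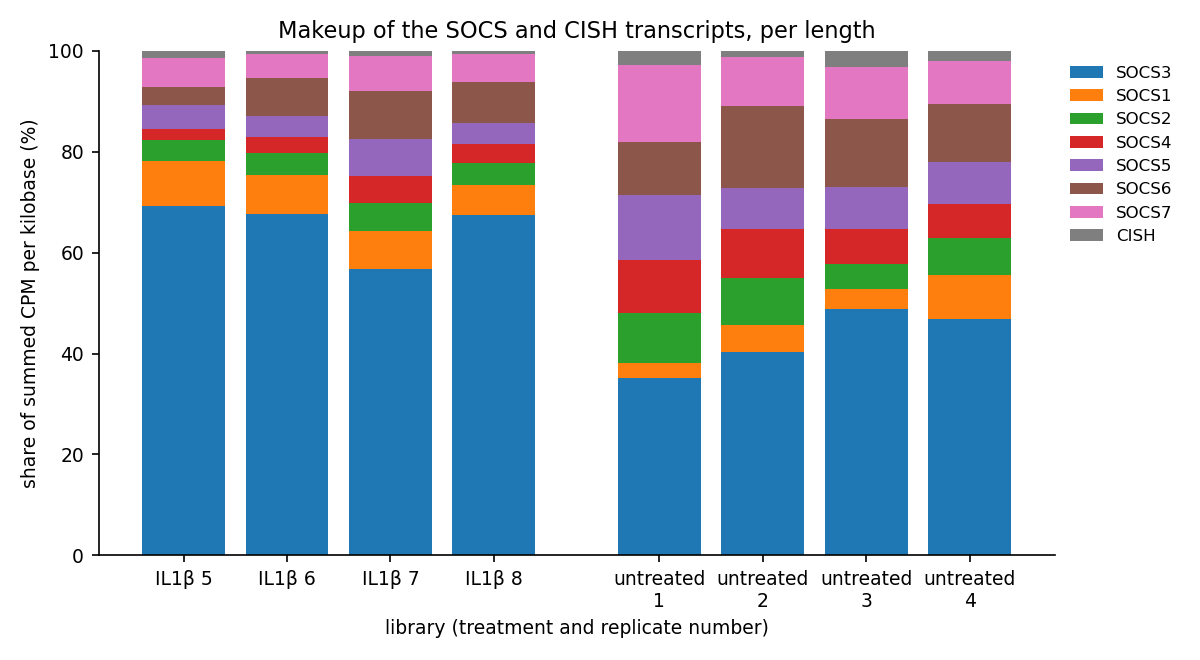
Share of each SOCS gene and CISH in their summed CPM per kilobase of merged exons (y axis, percent), with the 4 IL1β libraries to the left of the 4 untreated libraries on the x axis. SOCS3 takes 56.7 to 69.3% of each IL1β bar and 35.2 to 48.9% of each untreated bar.

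Of the 9 other kinases and STATs, 0 rose and 0 fell by edgeR's quasi-likelihood test; 3 were higher at an unadjusted p under 0.05 (STAT2, STAT5A and STAT6), none was lower, and DESeq2 called 1. Their median log2 fold change was 0.37, beside -0.02 over all genes. Over all genes, 6.23% were higher and 4.55% were lower at an unadjusted edgeR p under 0.05. STAT3, the transcription factor downstream of gp130, averaged 295 ± 60.4 CPM with IL1β and 235 ± 22.5 CPM without (log2 fold change 0.33, SE 0.18, adjusted p = 0.596). STAT2, an effector of type I interferon signals, had a log2 fold change of 0.87 (SE 0.32, adjusted p = 0.334), and STAT6, the IL4 effector, 0.41 (SE 0.17, adjusted p = 0.415). STAT5A had 0.661, 2.83, 2.27 and 1.68 CPM in IL1β libraries, against 0, 0, 0 and 0.598 CPM in untreated libraries (9 to 66 counts with IL1β and 0 to 12 without). The groups did not overlap, and the fitted log2 fold change of 3.67 (SE 1.13, adjusted p = 0.229), which rests on 3 libraries at 0, did not pass, although it did with DESeq2 (adjusted p = 0.0422), with limma-voom (0.0476) and without untreated replicate 4 (0.0298), the highest adjusted p being 0.506 without IL1β replicate 6. Its close relative STAT5B was measured at 54.1 ± 7.21 CPM with IL1β and 55.1 ± 5.05 CPM without (log2 fold change -0.02, adjusted p = 0.982). TYK2 (0.37), JAK3 (-0.38) and STAT4 (0.01, with a sign that turned in 4 of the other scalings and tools) had adjusted p of 0.651, 0.833 and 0.999.

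Among 14 other regulators of the pathway (PIAS proteins, phosphatases, SH2B adaptors and USP18), 13 were tested, and 0 rose and 0 fell by edgeR. At an unadjusted edgeR p under 0.05, 2 were higher and 1 was lower, against 6.23% and 4.55% of all genes. DESeq2 called 2 higher. USP18, which blocks the type I interferon receptor chain IFNAR2, had 5.07, 36.6, 28.1 and 26.5 CPM in IL1β libraries, against 2.38, 4.99, 4.29 and 3.39 CPM in untreated libraries. Its groups did not overlap, although IL1β replicate 5 was close to the untreated level, and its log2 fold change was 2.68 (SE 0.53, adjusted p = 0.0523). It passed without IL1β replicate 5 (adjusted p = 0.0012), without that replicate and untreated replicate 1 together (0.000565), with DESeq2 (1.6e-05) and without a filter on low counts (0.0036), and the adjusted p was at most 0.157 in the other fits. PTPN1, a phosphatase of JAK2 and TYK2, averaged 239 ± 40.3 CPM with IL1β and 139 ± 20.3 CPM without (log2 fold change 0.78, SE 0.19, adjusted p = 0.104), and passed with DESeq2 (0.00885), without IL1β replicate 5 (0.0354) and without that replicate and untreated replicate 1 together (0.0161), the highest adjusted p being 0.300 without IL1β replicate 6. Of 8 genes listed for the ubiquitin ligase recruited by the SOCS box and its partner enzymes, all tested, 0 rose and 0 fell by edgeR. There were 0 at an unadjusted edgeR p under 0.05 and 0 by DESeq2. The 2 with the smallest p were ELOB, the elongin B adaptor (log2 fold change 0.46, adjusted p = 0.668), and UBE2F, a NEDD8-conjugating enzyme (0.37, adjusted p = 0.750).

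The ligands and receptors that feed the pathway were counted as lists from the fit over all genes. No list was tested as a set, and the lists were chosen with earlier results of these data known. Of 39 ligands of JAK-using receptors, 13 were tested (median log2 fold change 1.01). Of these, 2 rose and 0 fell, against 0.929% and 0.0598% of all genes. At an unadjusted edgeR p under 0.05, 8 were higher and 0 were lower, against 6.23% and 4.55% of all genes. LIF, an IL6-family ligand, had 620, 663, 450 and 737 CPM in IL1β libraries, against 149, 155, 86.2 and 258 CPM in untreated libraries (log2 fold change 1.93, SE 0.32, adjusted p = 0.0243). CSF2, which encodes GM-CSF, averaged 187 ± 98.1 CPM with IL1β and 4.76 ± 5.10 CPM without (log2 fold change 5.30, SE 0.90, adjusted p = 0.0285). With single libraries left out, LIF kept its call in 4 of 8 fits and CSF2 in 3 of 8 (adjusted p up to 0.108 and 0.131, both without untreated replicate 2). The number of ligands that rose was 0 without IL1β replicate 6, IL1β replicate 8, untreated replicate 1 or untreated replicate 2, and 1 without IL1β replicate 7. IL6 had 1408, 965, 289 and 1433 CPM in IL1β libraries, against 42.0, 63.5, 8.61 and 183 CPM in untreated libraries. The groups of IL6 did not overlap, and its log2 fold change of 3.79 (SE 0.86) did not pass edgeR's quasi-likelihood test (adjusted p = 0.0847). IL6 did pass with DESeq2 (adjusted p = 6.9e-06), limma-voom (0.0472), edgeR without a filter on low counts (0.0048) and edgeR without untreated replicate 4 (0.0433), the highest adjusted p being 0.274 without untreated replicate 2. Replicate 7 was the lowest IL1β library, and replicate 4 the highest untreated library, for SOCS1, SOCS3, LIF, IL6 and CSF2 alike.

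Of 40 receptor chains, 22 were tested (median log2 fold change 0.29). Of these, 3 rose and 0 fell, against 0.929% and 0.0598% of all genes. At an unadjusted edgeR p under 0.05, 10 were higher and 0 were lower, against 6.23% and 4.55% of all genes. IL15RA, the IL15-binding chain, averaged 39.9 ± 2.22 CPM with IL1β and 10.4 ± 2.04 CPM without (log2 fold change 1.94, SE 0.18, adjusted p = 0.0019). IFNGR1, the ligand-binding interferon-γ chain that pairs with JAK1, averaged 158 ± 17.2 CPM with IL1β and 54.7 ± 10.5 CPM without (log2 fold change 1.53, SE 0.19, adjusted p = 0.0083). IFNAR2, a type I interferon chain that also binds JAK1, averaged 80.9 ± 9.88 CPM with IL1β and 29.9 ± 11.6 CPM without (log2 fold change 1.44, SE 0.27, adjusted p = 0.0469). As for SOCS3, the IFNAR2 call was lost with library-size scaling (adjusted p = 0.0854) and upper-quartile factors (adjusted p = 0.0559), and on leaving out any single library other than untreated replicate 4 (adjusted p up to 0.130, without IL1β replicate 8). IL15RA and IFNGR1 kept their calls with any single library left out. IL6ST, which encodes the gp130 chain to which SOCS3 binds, averaged 276 ± 93.8 CPM with IL1β and 239 ± 58.7 CPM without (log2 fold change 0.21, SE 0.30, adjusted p = 0.871).

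Of 35 genes known to respond to STATs, 26 were tested (median log2 fold change 0.64). Of these, 4 rose and 0 fell, against 0.929% and 0.0598% of all genes. At an unadjusted edgeR p under 0.05, 13 were higher and 1 was lower, against 6.23% and 4.55% of all genes. Of the 13, OSMR and IL4R are also in the receptor list and were counted there too. The lower gene was FOS (log2 fold change -1.65, edgeR adjusted p = 0.362). The acute-phase gene SAA2 had 9.89 to 14.3 CPM with IL1β and 0.0840 to 1.05 CPM without (log2 fold change 4.54, SE 0.55, adjusted p = 0.0073). The transcription factor genes IRF1 (log2 fold change 2.05, adjusted p = 0.0115) and CEBPD (3.20, adjusted p = 0.0164) and the peptide transporter gene TAP1 (1.11, adjusted p = 0.0321) also rose. SAA2 kept its call with any single library left out, IRF1 and CEBPD in all such fits but that without IL1β replicate 8 (adjusted p = 0.0503 and 0.0527), and TAP1 in 3 of 8 (adjusted p up to 0.126, without IL1β replicate 6). TAP1 was also lost with library-size scaling (adjusted p = 0.0620), and without IL1β replicate 8 the number of genes of this list that rose was 1. These genes are known to respond to NF-kB or other factors as well, and SAA2 has a near-identical neighbour in SAA1, so that reads may be split between them.

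The genes most like SOCS3 over the 8 libraries were looked for among 13565 genes of at least 1 CPM on average, by the root mean square difference of log2 CPM centred on each gene's mean. The nearest were CCDC71L (difference 0.25), TRAF3IP2, an adaptor of the IL17 receptor (0.32), and ZSWIM4 (0.32). CCDC71L averaged 151 ± 23.5 CPM with IL1β and 64.8 ± 21.3 CPM without (log2 fold change 1.22, adjusted p = 0.0543). TRAF3IP2 averaged 68.2 ± 3.34 CPM with IL1β and 26.9 ± 5.27 CPM without (log2 fold change 1.34, adjusted p = 0.0110). ZSWIM4 averaged 55.1 ± 9.82 CPM with IL1β and 21.7 ± 9.37 CPM without (log2 fold change 1.34, adjusted p = 0.0772). Likeness of pattern was measured on the same libraries as the SOCS3 test and says nothing of shared control.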

How the data were processed

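RNA of 8 A498 cultures was sequenced by the authors from stranded TruSeq libraries, aligned to hg38 with STAR 2.5.3a and counted per gene with featureCounts, per the labels; the featureCounts version, the annotation and the strand setting were not given in the sources read. The authors deposited raw counts, 1 column per library. Of 59050 table entries, 27 that carry a date in place of a symbol (0.197% to 0.236% of counts) were left out, and 36718 of the other 59023 symbols matched GENCODE 44, which gave coordinates and lengths. Genes were kept by filterByExpr, scaled by TMM and tested with edgeR 4.0.16 in R 4.3.3 (glmQLFit, glmQLFTest, condition only, Benjamini-Hochberg over 15062 genes). Alternatives were DESeq2 1.42.0, limma-voom (limma 3.58.1), other scalings and filters, and libraries left out. The fit was also run on simulated counts with planted changes larger than that of SOCS3 and no libraries set apart. That run does not show how well smaller changes are found.

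Every pair of libraries differed beyond sampling noise (smallest chi-square 13.4 per gene). The study describes experimental pairs, but the labels do not say which cultures were paired or independent. The test was unpaired, so its p-values measure the spread between these samples. That spread includes any difference between experiments and may in part be technical. Named genes were all members, the other JAKs and STATs, IL6ST and IL6, and, per pathway list, up to 6 genes that rose or fell with the smallest p, or the 2 smallest where none passed, plus the 3 nearest patterns to a member that passed. EPCAM, CD3E, PAX8, VIM, CA9, ITGAM, LYZ, FOS, OSMR, IL4R and genes overlapping members were named outside this rule after their values were seen. Members and lists were chosen with earlier results of these data known. A planned comparison of the SOCS proteins was not analysed here, and 1 gene of the lists is not reported here. Promoters were searched for 6 of the 10 members; those of SOCS2, SOCS3, SOCS5 and SOCS7 are not reported here.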

Additional observations from a re-analysis of the deposited data

Results flagged for a closer look

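Among 82 groups of 4 libraries (41 named genes in both conditions), 5 held a library set apart from the other 3 by more than Dixon's 95% critical value for the gap over the range, where chance flags about 1 group in 20. SOCS7 in untreated cells was highest in replicate 1, at 44.5 CPM, with the next library at 38.1 CPM. STAT5A in untreated cells was 0.598 CPM in replicate 4 and 0 in the other libraries. UBE2F in IL1β-treated cells was highest in replicate 5, at 37.2 CPM, with the next library at 19.3 CPM. IFNGR1 in untreated cells was lowest in replicate 3, at 39.1 CPM, with the next library at 58.4 CPM. CXCL8 in IL1β-treated cells was lowest in replicate 7, at 3574 CPM, with the next library at 4629 CPM. Neither SOCS1 nor SOCS3 had a library set apart in this way.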

How the results depend on the processing

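No paired analysis was possible because the untreated and IL1β libraries carry no shared replicate numbers, and the labels do not say which cultures form the study's experimental pairs. Leaving out untreated replicate 1 and IL1β replicate 5 together is given as both left out. The cause of the shifts below was not tested.

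The log2 fold change of SOCS3 was 1.28 with library-size scaling and 1.37 with upper-quartile factors, both no longer past the threshold, so that 0 members rose in these settings; with single libraries left out it was 1.28 to 1.62, and 0 to 1 members rose. The median of all genes moved to -0.18 with library-size scaling and -0.10 with upper-quartile factors. Signs turned for uncalled genes. SOCS2 was -0.12 with library-size scaling, -0.051 with upper-quartile factors and -0.14 to 0.17 over left-out libraries. With both left out, SOCS5 was 0.033, SOCS6 0.050, SOCS7 0.00076, STAT5B 0.049 and SOCS2-AS1 -0.053. Over left-out libraries SOCS6 ranged from -0.21 to 0.19, STAT5B from -0.096 to 0.052, SOCS2-AS1 from -0.52 to 0.56 and STAT4 from -0.67 to 0.44. SOCS2-AS1 was -0.066 with library-size scaling and -0.092 with limma-voom. STAT4 was -9.1e-06 with DESeq2, -0.13 with library-size scaling, -0.38 with limma-voom and -0.076 with upper-quartile factors.

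The number of all genes that rose was 140, against 423 with DESeq2, 230 without a filter, 378 with both left out and 38 to 218 over left-out libraries. The number that fell was 9, against 109 with DESeq2, 15 with upper-quartile factors, 54 with both left out and 0 to 12 over left-out libraries. Genes without overlap numbered 1207, against 3029 with both left out and 1369 to 2146 over left-out libraries. DESeq2 called 6 receptors, 5 ligands, 12 STAT-responsive genes, 2 other regulators and 1 other kinase or STAT as higher. With both left out, 9 STAT-responsive genes, 2 other regulators and 1 other kinase or STAT rose. Without a filter, 8 STAT-responsive genes and 1 other regulator rose, and with limma-voom 1 other kinase or STAT. Over left-out libraries, 1 to 6 STAT-responsive genes, 0 to 3 ligands, 0 to 2 other regulators and 0 to 1 other kinases or STATs rose. Of the 10 members, 4 kept their place in the order by level with MANE Select lengths and 1 without any length. CISH, at 44 to 157 counts a library, was the member with the fewest counts in IL1β libraries. In untreated libraries SOCS1 averaged less (3.99 CPM, 45 to 148 counts) than CISH (4.68 CPM).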
